A study of Mus musculus with 12 samples.

Results

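The 10 genes described here encode the NF-kB transcription factor subunits (Nfkb1, Nfkb2, Rela, Relb and Rel) and proteins that bind or restrain them (Nfkbia, Nfkbie, Nfkbiz, Tnfaip3 and Bcl3). The second set is called inhibitors here as a group name only, since Nfkbiz and Bcl3 encode nuclear proteins. All 10 genes were taken from a gene count table of mouse spinal cord by their gene symbols alone, and all 10 were found among its 54532 genes. The table covers 12 RNA sequencing libraries of whole spinal cord from C57BL/6 mice aged 2 to 3 months, with 3 libraries, labelled as separate biological replicates, in each of 4 groups. Mice with a conditional knockout of Drd2, the dopamine D2 receptor gene (labelled Drd2mGFAP, called cKO here), were sampled at day 17 of experimental autoimmune encephalomyelitis (cKO EAE). Littermates labelled wt were sampled at the same day (control EAE), and both genotypes were also sampled without disease (cKO basal and control basal). EAE is an induced immune attack on myelin used to study multiple sclerosis, and the GFAP promoter named in the label is active in astrocytes. The sources used here do not name the recombinase allele, the deleted part of Drd2 or any allele of the controls beyond the wt label. The series title concerns inhibition of DRD2 in astrocytes and inflammation of the central nervous system.

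NF-kB dimers of these subunits wait in the cytoplasm bound to IkB proteins. Signals from receptors for tumor necrosis factor, interleukin 1 or microbial products lead to IkB breakdown by way of the IkB kinase complex, and the freed dimers switch on inflammatory genes. Several of the genes switched on encode the inhibitors themselves, so that their RNA is widely read as a sign of the pathway's activity. In the spinal cord the pathway runs in resident glia and vessels as well as in leukocytes that enter the tissue.

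Library totals ran from 15128913 to 17592105 counts. Libraries cKO basal 2 and cKO EAE 3 are called the libraries that stand apart here. Control basal 1 also differed from its group. Its chi-square per degree of freedom was 43.2 and 45.3 against its mates, which differed from each other by 3.26. For cKO basal 2 the values were 448 and 456 (13.6 between its mates). For cKO EAE 3 they were 37.1 and 56.0 (15.8 between its mates). Counts fell on 17220 genes in cKO basal 2, against 24303 to 26056 genes elsewhere, and ribosomal protein genes took 5.68% of its counts against 0.879 to 1.80%. The factor of TMM, the library size correction used for CPM here, was 0.728 in cKO basal 2 and 1.01 to 1.06 elsewhere. CPM of cKO basal 2 are therefore higher than by library total, that is without the factor, and orders against it can depend on the scaling. In cKO EAE 3 the summed level of 8 monocyte and macrophage markers was 121 CPM, against 874 and 1852 CPM in cKO EAE 1 and 2, 3310 to 5842 CPM in control EAE and 40.2 to 77.8 CPM in the 6 basal libraries. Every EAE library held at least 69.7 CPM of the Y-linked gene Ddx3y and at most 0.287 CPM of Xist, while every basal library had 0 counts of Ddx3y and at least 316 CPM of Xist. Disease and sex therefore cannot be told apart in any contrast of EAE with basal. Drd2 itself was at 6.73 to 19.4 CPM in cKO EAE and 8.89 to 9.62 CPM in control EAE, and at 17.6 to 34.7 CPM in cKO basal and 19.4 to 26.5 CPM in control basal. Its log2 fold change of cKO over control was 0.52 (SE 0.35) at EAE and 0.40 (SE 0.34) at basal, neither past an adjusted p of 0.05. Counts over a whole gene in whole cord do not test a deletion in 1 cell type, so the genotype stands as labelled. All 8 neuron, 8 oligodendrocyte and 8 spinal cord identity markers were counted in every library. Their sums were not alike, and oligodendrocyte markers summed to 63351 CPM in cKO basal 2, against 17086 to 24949 CPM in the other basal libraries. Astrocyte markers summed to 2749 CPM in cKO basal 2, against 5495 to 6499 CPM. Neutrophil markers summed to 114 CPM there, against 2.04 to 20.5 CPM.

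RefSeq promoter entries (build GRCm38.p6, which is mm10) were matched for 7 of the 10 genes, all but Nfkb1, Relb and Nfkbiz. The entries reach from 250 bases before to 50 bases after a start site and were searched on both strands for the 10-base kB consensus motif, the sequence that NF-kB dimers bind. It was present in 8 of the 10 entries of these genes (80.0%) and in 4.51% of the 32851 entries of all genes. By gene, 6 of 7 had it (85.7%), against 5.14% of 27025 genes. The genes were chosen for their part in NF-kB signalling and its feedback, so these shares are a description and no test. A GGGACTTTCC site of Nfkb2 lies in overlapping entries and was counted more than once. Rela was the gene without a match in these letters. The stretches printed here run from 110 bases before to 20 bases after the start site nearest to the gene's deposited 5′ end. They are shown because all of these genes rose in control EAE, and capitals mark the motif, which reads in reverse complement where it lies on the other strand.
Nfkb2 (chr19:46304627-46304756, plus strand): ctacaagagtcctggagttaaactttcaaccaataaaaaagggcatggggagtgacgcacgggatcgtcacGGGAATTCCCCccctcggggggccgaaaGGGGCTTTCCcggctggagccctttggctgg
Bcl3 (chr7:19822736-19822865, minus strand): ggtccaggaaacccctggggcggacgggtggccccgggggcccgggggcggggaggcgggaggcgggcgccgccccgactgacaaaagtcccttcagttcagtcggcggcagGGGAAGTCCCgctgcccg
Tnfaip3 (chr10:19015391-19015520, minus strand): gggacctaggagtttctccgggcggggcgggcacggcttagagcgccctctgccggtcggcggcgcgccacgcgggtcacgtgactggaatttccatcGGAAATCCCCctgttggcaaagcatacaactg
Nfkbia (chr12:55492628-55492757, minus strand): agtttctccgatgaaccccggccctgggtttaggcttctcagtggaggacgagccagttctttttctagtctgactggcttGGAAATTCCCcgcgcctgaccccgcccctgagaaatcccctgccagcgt
Nfkbie (chr17:45555590-45555719, plus strand): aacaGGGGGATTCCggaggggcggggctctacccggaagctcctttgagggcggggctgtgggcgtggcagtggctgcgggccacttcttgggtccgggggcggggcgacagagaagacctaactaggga
Rel (chr11:23770950-23771079, minus strand): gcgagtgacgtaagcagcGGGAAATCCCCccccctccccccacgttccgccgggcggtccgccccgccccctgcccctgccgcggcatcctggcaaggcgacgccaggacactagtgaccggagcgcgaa
Rela (chr19:5637431-5637560, plus strand): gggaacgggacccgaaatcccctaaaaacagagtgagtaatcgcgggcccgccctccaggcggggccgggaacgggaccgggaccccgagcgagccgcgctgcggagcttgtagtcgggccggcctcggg

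Nfkb2 held a pair of separate motif stretches, the nearer of them 11 to 2 bases before the start site. In Nfkbia the match was GGGAATTTCC on the opposite strand, 29 to 20 bases before the start. In Bcl3 it was GGGACTTCCC, also on the opposite strand and 3 to 12 bases into the transcript. The overlapping matches of Nfkb2 and of Rel on both strands were counted as 1 stretch each. Tnfaip3 had a further match 125 to 116 bases before the start, outside the stretch printed. A match is a description of the letters and not a measured binding site.

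In mm10 coordinates of the deposited table, the subunit genes lie at chr3:135584655-135691547 (Nfkb1), chr19:46304737-46312090 (Nfkb2), chr19:5637483-5648130 (Rela), chr7:19606217-19629438 (Relb) and chr11:23736847-23770970 (Rel). The inhibitor genes lie at chr12:55489410-55492647 (Nfkbia), chr17:45555703-45563169 (Nfkbie), chr16:55811375-55838899 (Nfkbiz), chr10:19000910-19015657 (Tnfaip3) and chr7:19808462-19822770 (Bcl3). Levels are TMM-normalised CPM (counts scaled to library size), and per kilobase of the deposited gene length where genes are compared with each other. The order of genes depends on that length, which is 12061 bases for Nfkb1 and 2716 bases for Rela. Without division by length, Nfkb1 and Rela averaged 34.4 and 33.6 CPM in control basal, and 111 and 77.4 CPM in control EAE. Per kilobase, Nfkbia and Rela held the first and second place in all 4 groups. In cKO EAE they averaged 28.7 ± 13.1 and 17.4 ± 4.65 CPM per kb, and their ranges overlapped. In control EAE they averaged 62.1 ± 3.09 and 28.5 ± 3.41 CPM per kb without overlap (SD, n = 3 in each group).
The places below differed between the EAE and basal groups. In control EAE Bcl3 (17.2 ± 3.80) and Nfkb2 (16.6 ± 3.30 CPM per kb) came next, with overlapping ranges, followed by Nfkbie, Nfkbiz, Nfkb1, Relb and Tnfaip3 between 11 and 7.51 CPM per kb, each overlapping its neighbour, and Rel was last at 4.95 ± 0.199.
In control basal Nfkb1 held the third place (2.85 ± 0.264). Nfkbiz, Relb, Nfkb2 and Nfkbie followed with overlapping ranges between 1.66 and 1.33 CPM per kb, then Rel (0.967 ± 0.182), Tnfaip3 (0.512 ± 0.0923) and Bcl3 (0.367 ± 0.155). Bcl3 was thus last in control basal and next after Nfkbia and Rela in control EAE. In cKO EAE Rela stood apart from the genes below it, and those from the third place (Nfkb2, 5.52 ± 3.67) to the tenth (Tnfaip3, 2.07 ± 1.18) overlapped from neighbour to neighbour. In cKO basal all neighbours from the third place down overlapped as well.

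**Figure D1:**
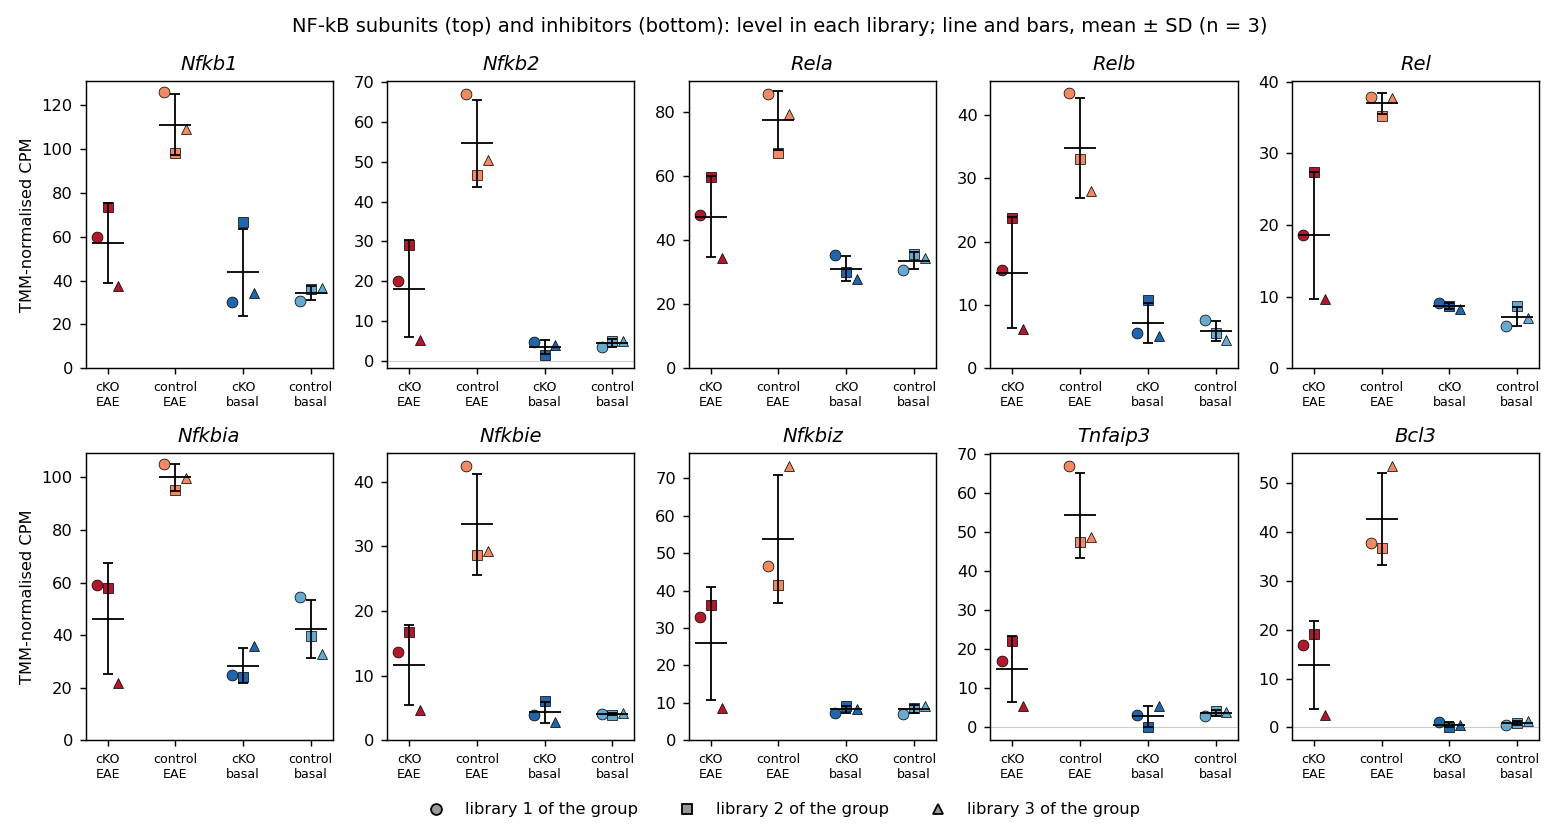
Level of each gene (y axis, TMM-normalised CPM, linear) in cKO EAE, control EAE, cKO basal and control basal libraries, with the mean and SD of 3 libraries. In every panel the 3 control EAE points lie above all points of the other groups, and library 3 of cKO EAE (triangle) is the lowest cKO EAE point.

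The first question was how the genes changed between EAE and the undisturbed cord in each genotype. In cKO mice the fold changes were 1.31-fold (Nfkb1) to 23.4-fold (Bcl3) and none passed the test with all libraries. In control mice all 10 genes rose, by 2.30-fold (Rela) to 46.3-fold (Bcl3). A gene was called at an adjusted p below 0.05 from the quasi-likelihood test of edgeR, with Benjamini-Hochberg adjustment over all 18601 genes tested, named edgeR adjusted p here.
In cKO mice 0.0323% of all genes tested were called higher. Of the 10 genes, 8 had an unadjusted p below 0.05 there, against 19.6% of all genes tested. In 4 (Nfkb2, Rel, Tnfaip3 and Bcl3) every EAE library lay above every basal one, against 9.8% of all genes tested. That count holds for TMM-normalised CPM, and by library total Nfkbie and Nfkbiz would join them. In control mice 12.1% of all genes tested were called higher, and all 10 genes had every EAE library above every basal one, against 29.8% of all genes tested. The median log2 fold change of the 10 genes was 1.27 in cKO mice (0.08 over all genes tested) and 2.62 in control mice (-0.0065 over all genes tested).

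Among the subunits, Nfkb2 had the highest fold change in both genotypes. It encodes the precursor of p52, the DNA-binding partner of RelB in the noncanonical pathway. Its level was 20.1, 29.2 and 5.23 CPM in cKO EAE 1, 2 and 3, against 4.89, 1.46 and 4.0 CPM in cKO basal. In controls it was 66.9, 46.5 and 50.3 CPM in EAE, against 3.50, 4.97 and 5.14 CPM at basal. All control EAE libraries thus lay far above every basal library, while cKO EAE 3 lay just above the highest cKO basal library. The log2 fold change was 2.38 in cKO (SE 0.58, edgeR adjusted p = 0.0847) and 3.59 in controls (SE 0.60, 0.00349). Relb, whose product pairs with p52, was at 15.6, 23.7 and 6.14 CPM in cKO EAE, against 5.53, 10.7 and 5.19 CPM in cKO basal. Control libraries held 43.4, 33.0 and 28.0 CPM in EAE, against 7.69, 5.63 and 4.53 CPM at basal. The cKO ranges overlapped, since cKO EAE 3 lay below cKO basal 2, and the control ranges did not. Its log2 fold change was 1.09 in cKO (SE 0.46, edgeR adjusted p = 0.237) and 2.55 in controls (SE 0.48, 0.00548).

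Rel encodes c-Rel, a subunit that lymphoid and myeloid cells use most. It was at 18.6, 27.4 and 9.66 CPM in cKO EAE, against 9.07, 8.73 and 8.35 CPM in cKO basal. In controls it was at 37.9, 35.3 and 37.8 CPM in EAE, against 5.98, 8.67 and 7.02 CPM at basal. No range overlapped in either genotype, although cKO EAE 3 was within 1 CPM of cKO basal 1. The log2 fold change was 1.09 in cKO (SE 0.32, edgeR adjusted p = 0.140) and 2.35 in controls (SE 0.33, 0.00318).

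Of the subunits, those of the most common dimer had the lowest control fold changes. Nfkb1 encodes the precursor of p50, and was at 60.0, 73.5 and 37.7 CPM in cKO EAE, against 30.3, 66.5 and 34.3 CPM in cKO basal. Control EAE libraries were at 126, 98.1 and 109 CPM, against 30.7, 36.0 and 36.5 CPM in control basal. The cKO basal 2 value lay above those of cKO EAE 1 and 3. By library total it was 48.3 CPM, above cKO EAE 3 (39.3 CPM) and below cKO EAE 1 (61.0 CPM). Rela, which encodes the activating subunit p65, was at 47.8, 59.7 and 34.5 CPM in cKO EAE, against 35.4, 30.1 and 27.7 CPM in cKO basal. In controls it was at 85.5, 67.3 and 79.4 CPM in EAE, against 30.8, 35.6 and 34.5 CPM at basal. For Rela cKO EAE 3 lay below cKO basal 1, and the control groups were apart. The log2 fold changes of Nfkb1 and Rela were 0.39 (SE 0.32) and 0.61 (SE 0.21) in cKO, and 1.69 (SE 0.32) and 1.20 (SE 0.22) in controls. Their edgeR adjusted p values were 0.530 and 0.192 in cKO, and 0.00588 and 0.00459 in controls.

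Among the inhibitors, Bcl3 had the highest fold change in both genotypes. Its product is a nuclear IkB-family protein that binds p50 and p52 dimers on DNA. Bcl3 was at 16.8, 19.1 and 2.55 CPM in cKO EAE, against 1.05, 0 and 0.477 CPM in cKO basal. Among controls the level was 37.7, 36.8 and 53.5 CPM in EAE, against 0.572, 0.829 and 1.33 CPM at basal. The EAE libraries were above the basal ones in both genotypes, and even cKO EAE 3 was above all 6 basal libraries. The log2 fold change was 4.55 in cKO (SE 0.89, edgeR adjusted p = 0.0726) and 5.53 in controls (SE 0.90, 0.00333). A pair of antisense genes inside Bcl3 had 75 and 40 counts over the 12 libraries, against 2920 for Bcl3, and the sources used here do not say whether the counting used strand. Tnfaip3 encodes a ubiquitin-editing enzyme that stops signalling upstream of the IkB kinases. It was at 17.1, 22.2 and 5.53 CPM in cKO EAE, against 3.14, 0 and 5.37 CPM in cKO basal. In controls it was at 66.9, 47.4 and 48.6 CPM in EAE, against 2.99, 4.31 and 3.81 CPM at basal. The lowest cKO EAE value lay just above the highest cKO basal value, and the control groups were far apart. The log2 fold change of Tnfaip3 was 2.36 in cKO (SE 0.88, edgeR adjusted p = 0.205) and 3.87 in controls (SE 0.92, 0.0157). The 0 counts of Bcl3 and Tnfaip3 in cKO basal 2 allow a level of up to 0.273 CPM, the worth of 3 counts there, for counting error only.

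Nfkbiz encodes IkB-zeta, a nuclear co-regulator that some late inflammatory genes need. It was at 32.8, 36.1 and 8.69 CPM in cKO EAE, against 7.44, 9.28 and 8.29 CPM in cKO basal. Control libraries held 46.5, 41.4 and 73.4 CPM in EAE, against 7.12, 8.62 and 9.28 CPM at basal. In cKO EAE 3 its level fell within the basal range. Nfkbie encodes IkB-epsilon, a cytoplasmic inhibitor, and was at 13.6, 16.7 and 4.74 CPM in cKO EAE, against 3.96, 6.09 and 2.92 CPM in cKO basal. Among controls the level was 42.4, 28.6 and 29.3 CPM in EAE, against 4.07, 3.87 and 4.20 CPM at basal. For Nfkbie cKO EAE 3 lay below cKO basal 2 in TMM-normalised CPM, and above it by library total. The log2 fold changes of Nfkbiz and Nfkbie were 1.64 (SE 0.45) and 1.44 (SE 0.43) in cKO, and 2.69 (SE 0.46) and 3.04 (SE 0.45) in controls. Their edgeR adjusted p values were 0.112 and 0.143 in cKO, and 0.00383 and 0.00318 in controls.

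Nfkbia, the gene of IkB-alpha, is the best known feedback target of NF-kB. It was at 59.1, 57.8 and 21.9 CPM in cKO EAE, against 25.0, 24.1 and 36.0 CPM in cKO basal. Control EAE libraries were at 105, 95.1 and 99.7 CPM, against 54.4, 39.8 and 32.9 CPM in control basal. The cKO EAE 3 value was the lowest of all 12 libraries. The log2 fold change was 0.70 in cKO (SE 0.35, edgeR adjusted p = 0.285) and 1.24 in controls (SE 0.35, 0.0330). Among the 10 genes its control response was the least sure. Its call was lost on leaving out control basal 2 or 3 or any control EAE library, with edgeR adjusted p of 0.0750 to 0.137. The control call of Tnfaip3 was lost without control basal 1, 2 or 3 or control EAE 1, with edgeR adjusted p of 0.0540 to 0.0730. These fits share 1 estimate of the spread with the cKO libraries. Without cKO basal 2 and cKO EAE 3, the control log2 fold change of Nfkbia was 1.25 (SE 0.18, edgeR adjusted p = 0.000111). That of Tnfaip3 was then 3.87 (SE 0.23, edgeR adjusted p = 6.23e-08).

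**Figure D2:**
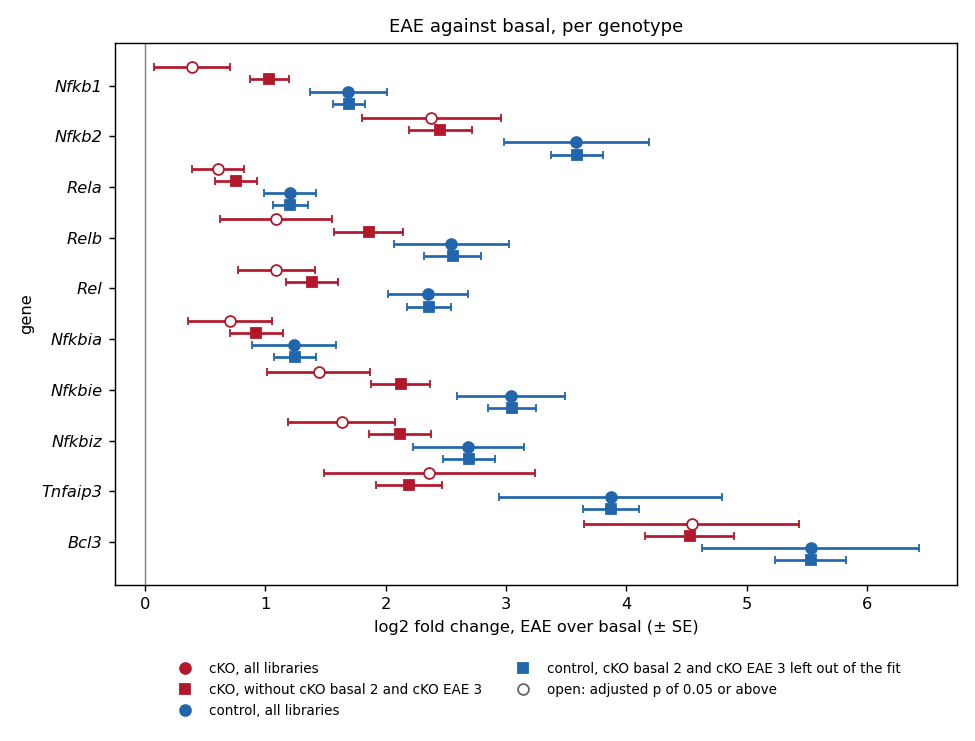
Fitted log2 fold change of EAE over basal (x axis, with SE) of the 10 genes in cKO (red) and control mice (blue), from all 12 libraries (circles) and without cKO basal 2 and cKO EAE 3 (squares). All values lie above 0; the cKO values of 0.39 to 4.55 are open (not called) with all libraries and filled without the 2 libraries.

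The number of calls in cKO mice changed with the libraries that stand apart. Without cKO basal 2 alone it did not, with 0 of 10 called higher, against 0.0315% of all genes tested. Without cKO EAE 3 alone, 6 of 10 genes rose (Nfkb2, Rel, Nfkbia, Nfkbie, Nfkbiz and Bcl3), against 5.4% of all genes tested. Without cKO basal 2 and cKO EAE 3, all 10 rose in cKO mice, against 10.8% of all genes tested, by 0.76 (Rela) to 4.53 (Bcl3) on the log2 scale, with edgeR adjusted p of 4.35e-06 to 0.0131. In that fit all 10 rose in control mice too, against 24.9% of all genes tested, by 1.21 to 5.53, with edgeR adjusted p of 2.56e-08 to 0.000111. Leaving out cKO EAE 3 takes away the library in which these same genes were lowest, so that fit describes how the calls rest on 1 library and is no independent support. With all libraries, limma voom with sample weights called 10 of 10 higher in cKO mice, against 11.5% of all genes. DESeq2's Wald test called 5, against 5.09% of all genes.

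The next question was whether the EAE response differed by genotype. Because disease and sex go together here, such a difference cannot be told apart from a sex difference that varies by genotype. For all 10 genes the fitted cKO response was the smaller one. The difference of the log2 fold changes (cKO minus control) was -0.53 (Nfkbia) to -1.60 (Nfkbie) with a median of -1.23, beside -0.05 over all genes tested, and none was called. The edgeR adjusted p values ran from 0.547 to 0.802, and 0% of all genes tested were called. At an unadjusted p below 0.05 stood 9.12% of all genes tested and 4 of the 10, namely Nfkb1 (-1.30, SE 0.45), Relb (-1.46, SE 0.65), Rel (-1.26, SE 0.45) and Nfkbie (-1.60, SE 0.60). With limma voom 3 genes passed (Nfkb1, Rel and Tnfaip3), all in the negative direction, against 7.35% of all genes. With DESeq2 0 of the 10 passed. Without cKO basal 2 and cKO EAE 3 the differences were -0.32 (Nfkbia) to -1.68 (Tnfaip3), with 0 called by edgeR, 5 at an unadjusted p below 0.05 (18.1% of all genes tested) and edgeR adjusted p of 0.0943 to 0.575. That a response passed in controls and not in cKO therefore does not show that the responses differed.

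The genotypes were next compared during EAE. All 10 genes were lower in the 3 cKO EAE libraries than in the 3 control EAE libraries, with no overlap for any gene. The fitted levels in cKO EAE were 0.282 (Tnfaip3) to 0.627 (Rela) times those in control EAE. None of the 10 was called with all 6 libraries. The edgeR adjusted p values ran from 0.0564 to 0.195, and 9 of 10 genes, all but Nfkbiz, had an unadjusted p below 0.05, as did 35.9% of all genes tested. Of the 17914 genes tested, 1.54% were called lower, and 26.7% had every cKO library below every control one. The median log2 fold change of the 10 genes was -1.12, beside -0.00019 over all genes tested.

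By role, Tnfaip3 and Bcl3 among the inhibitors and Nfkb2 among the subunits had the lowest fold changes. Tnfaip3 averaged 14.9 ± 8.52 CPM in cKO EAE and 54.3 ± 10.9 CPM in control EAE (log2 fold change -1.83, SE 0.46, edgeR adjusted p = 0.0564). Bcl3 averaged 12.8 ± 8.96 CPM in cKO EAE and 42.7 ± 9.41 CPM in control EAE (-1.70, SE 0.63). Nfkb2 averaged 18.2 ± 12.1 CPM in cKO EAE and 54.6 ± 10.8 CPM in control EAE (-1.55, SE 0.54). For each of the 3, cKO EAE 2 was the highest cKO library and still below every control. Relb, the partner of p52, averaged 15.1 ± 8.77 CPM in cKO EAE and 34.8 ± 7.86 CPM in control EAE (-1.17, SE 0.45). Nfkbie averaged 11.7 ± 6.22 CPM in cKO EAE and 33.4 ± 7.79 CPM in control EAE (-1.48, SE 0.43). Library cKO EAE 3 was the lowest cKO EAE library for all 10 genes.

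Differences were smaller for the other 5 genes. Nfkbia averaged 46.3 ± 21.1 CPM in cKO EAE and 99.9 ± 4.97 CPM in control EAE (-1.07, SE 0.35). Nfkbiz averaged 25.9 ± 15 CPM in cKO EAE and 53.7 ± 17.2 CPM in control EAE (-1.02, SE 0.51), and had the highest edgeR adjusted p of the 10 at 0.195. Control EAE 3 lay well above the other two control libraries. Rel averaged 18.6 ± 8.89 CPM in cKO EAE and 37.0 ± 1.48 CPM in control EAE (-0.96, SE 0.33). Nfkb1 averaged 57.1 ± 18.1 CPM in cKO EAE and 111 ± 13.9 CPM in control EAE (-0.92, SE 0.24, edgeR adjusted p = 0.0580). Rela, with the smallest difference, averaged 47.3 ± 12.6 CPM in cKO EAE and 77.4 ± 9.26 CPM in control EAE (-0.67, SE 0.20).

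Leaving out cKO EAE 3 made the differences smaller and the calls more. Without it 9 of 10 genes, all but Nfkbiz, were lower in cKO at an edgeR adjusted p of 0.0150 to 0.0436, against 9.1% of all genes tested. The log2 fold changes were then -1.43 (SE 0.18) for Tnfaip3, -1.21 (SE 0.18) for Bcl3, -1.11 (SE 0.20) for Nfkb2, -0.73 (SE 0.10) for Nfkbia and -0.49 (SE 0.14) for Rela. Nfkbiz was at -0.60 (SE 0.23, edgeR adjusted p = 0.105). Without cKO EAE 2 instead, 4 genes passed (Nfkb1, Rel, Rela and Tnfaip3), at -0.87 (Rela) to -2.21 (Tnfaip3), and 7.9% of all genes tested were called lower. Leaving out cKO EAE 1 or any control EAE library gave 0 calls among the 10, and 0% of all genes tested were called in each of these fits. With all 6 libraries, limma voom called 9 of 10 lower, against 15.5% of all genes, and DESeq2 called 6, against 14.3%.

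The summed markers of monocytes and macrophages, of T cells and of microglia were also lower in every cKO EAE library than in any control EAE library. The 8 monocyte and macrophage markers summed to 121 to 1852 CPM in cKO EAE and 3310 to 5842 CPM in control EAE. The 8 T cell markers summed to 4.68 to 42.5 CPM in cKO EAE and 88.7 to 96.8 CPM in control EAE, and Cd3d, Cd3g and Cd2 had 0 counts in cKO EAE 3. That library had the lowest sum, 4.68 CPM, inside the range of the basal libraries (3.37 to 5.09 CPM). The labels do not say whether the mouse of cKO EAE 3 developed disease. The 8 microglia markers summed to 302 to 1544 CPM in cKO EAE and 1824 to 2208 CPM in control EAE. The 8 neutrophil markers overlapped (34.3 to 130 CPM in cKO EAE, 74.7 to 102 CPM in control EAE), as did the 6 B cell markers (3.40 to 4.48 CPM in cKO EAE, 3.32 to 5.80 CPM in control EAE). Astrocyte markers overlapped too, at 5971 to 10213 CPM in cKO EAE and 9046 to 10653 CPM in control EAE. Markers of neurons, oligodendrocytes and spinal cord identity were higher in every cKO EAE library than in any control EAE library. The 8 neuron markers summed to 4234 to 5690 CPM in cKO EAE and 2361 to 3017 CPM in control EAE. The 8 oligodendrocyte markers summed to 18280 to 24747 CPM in cKO EAE and 12701 to 16437 CPM in control EAE, and the 8 spinal cord identity genes to 280.02 to 404 CPM in cKO EAE and 239.5 to 263 CPM in control EAE. The part of these shifts in the NF-kB gene levels was not tested. In whole cord, fewer cells of a type and less RNA per cell cannot be told apart.

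**Figure D3:**
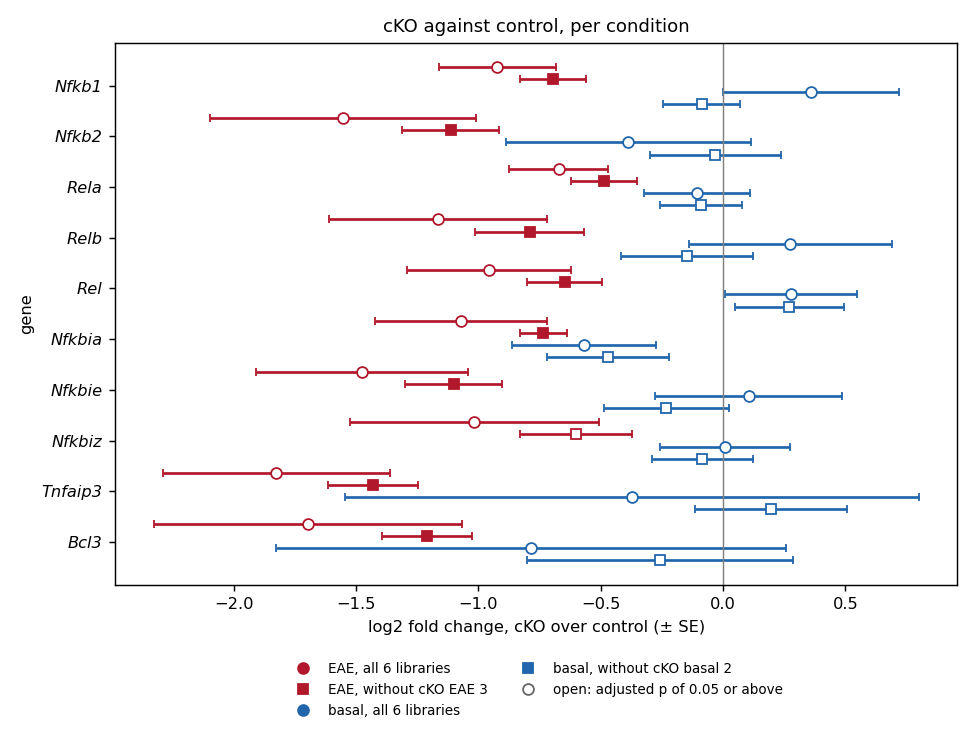
Fitted log2 fold change of cKO over control (x axis, with SE) of the 10 genes at EAE (red) and at basal (blue), with all 6 libraries (circles) and without the cKO library that stands apart (squares). At EAE all values lie below 0, from -1.83 to -0.49; at basal they lie on both sides of 0 and all are open (not called).

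Without disease no genotype difference was detected in these genes. With all 6 basal libraries 5 of the 10 had positive and 5 negative log2 fold changes of cKO over control, from -0.79 (Bcl3, SE 1.04) to 0.36 (Nfkb1, SE 0.36). None was called, with edgeR adjusted p of 0.997 to 0.999. At an unadjusted p below 0.05 stood 0 of 10, against 0.181% of all genes tested, so this 0 does not set the 10 genes apart. DESeq2 and limma voom called 0 of 10 as well, and edgeR called 0% of the 17133 genes tested. Each gene's ranges overlapped. Bcl3 and Tnfaip3 had 0 counts in cKO basal 2, and Nfkb1 (66.5 CPM) and Relb (10.7 CPM) had their highest basal level in the same library. By library total these levels were 48.3 and 7.80 CPM, and Relb in control basal 1 was nearly equal at 7.78 CPM. Without cKO basal 2 the log2 fold changes ran from -0.47 (Nfkbia, SE 0.25) to 0.27 (Rel, SE 0.22), again with 0 calls. Those of Nfkb1, Relb, Nfkbie, Nfkbiz and Tnfaip3 changed sign. In that fit 0 of 10 had an unadjusted p below 0.05, against 2.21% of all genes tested.

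In the make-up of the subunit RNA, the shares of Rela and Nfkb2 in control EAE lay apart from those in all other groups. Of the summed level of the 5 subunits per kilobase, Rela made up 53.2 ± 8.23% in cKO EAE and 41.9 ± 2.24% in control EAE, and 60.1 ± 6.77% in cKO basal and 64.8 ± 0.793% in control basal (SD, n = 3 each). Its range in cKO EAE (47.1 to 62.6%) overlapped that in cKO basal (52.9 to 66.3%), which held the control basal range (63.9 to 65.5%). Nfkb2 made up 14.7 ± 6.02% in cKO EAE and 24.2 ± 1.48% in control EAE, and 5.64 ± 3.06% in cKO basal and 7.17 ± 1.06% in control basal. The Nfkb2 share in cKO EAE 3 was 7.84%, inside the control basal range of 6.00 to 8.05%. Relb made up 10.7 ± 2.68% in cKO EAE and 13.1 ± 1.85% in control EAE, and its ranges overlapped among all 4 groups. Nfkb1 made up 26.3% in cKO basal 2 and 17.0% in cKO basal 3, and 12.8 to 15.6% in the other 10 libraries. The size of each share depends on the deposited gene lengths, of which that of Nfkb1 is the longest among the 5 subunits.

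**Figure D4:**
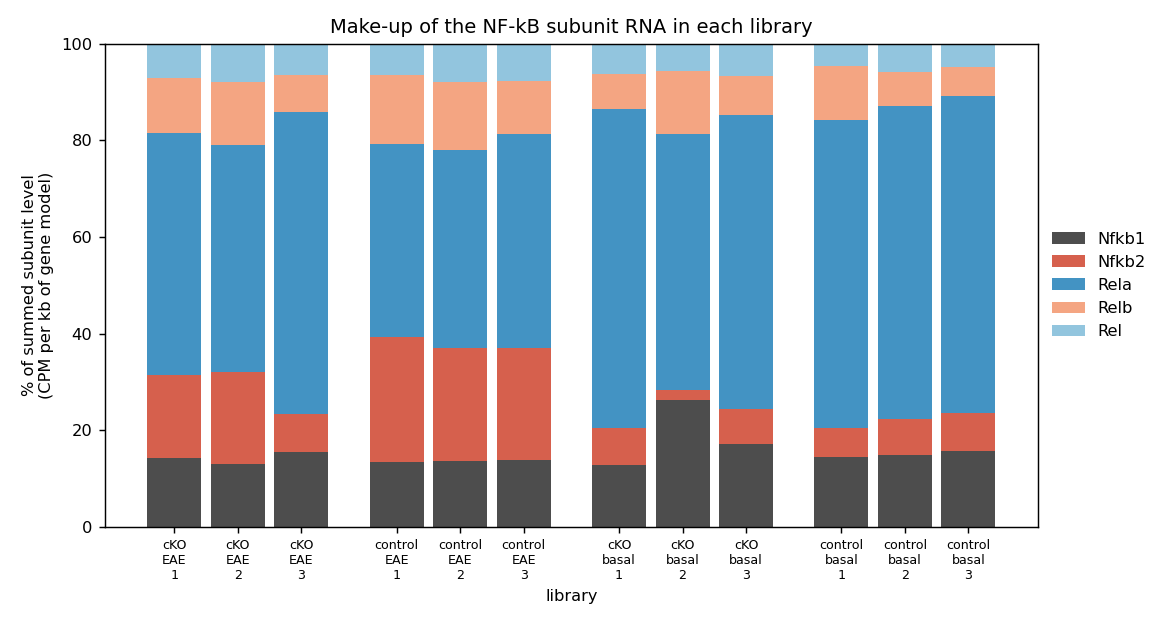
Share of each subunit (stacked, % of the summed CPM per kb of the 5 subunits) in each of the 12 libraries. Rela holds 40.1 to 44.4% in control EAE libraries against 63.9 to 65.5% in control basal ones, and the Nfkb2 part is widest in control EAE.

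Relative to Rela the inhibitors shifted in EAE by unequal steps. The log2 ratio of Nfkbia to Rela averaged -0.13 ± 0.48 in cKO EAE and -0.15 ± 0.46 in cKO basal, and 0.37 ± 0.11 in control EAE and 0.30 ± 0.46 in control basal. Its shift between EAE and basal was thus smaller than its spread. The log2 ratio of Tnfaip3 to Rela averaged -1.85 ± 0.68 in cKO EAE, and -0.52 ± 0.18 in control EAE and -3.20 ± 0.16 in control basal. The log2 ratio of Bcl3 to Rela averaged -2.30 ± 1.26 in cKO EAE, and -0.87 ± 0.31 in control EAE and -5.29 ± 0.54 in control basal. Both therefore drew nearer to Rela in control EAE, and the control groups did not overlap. The log2 ratio of Nfkbie to Rela averaged -2.17 ± 0.60 in cKO EAE and -2.90 ± 0.52 in cKO basal, and -1.23 ± 0.21 in control EAE and -3.05 ± 0.14 in control basal. That of Nfkbiz to Rela averaged -1.09 ± 0.79 in cKO EAE and -1.90 ± 0.31 in cKO basal. In controls the Nfkbiz ratio was -0.56 ± 0.40 in EAE and -2.02 ± 0.11 at basal. Between the precursor genes, the log2 ratio of Nfkb2 to Nfkb1 averaged -1.92 ± 0.81 in cKO EAE and -3.75 ± 1.55 in cKO basal, and -1.03 ± 0.11 in control EAE and -2.94 ± 0.17 in control basal. No cKO basal mean is given for Tnfaip3 and Bcl3, which had 0 counts in cKO basal 2. These are ratios of CPM within a library, with no length correction, and describe the same counts as the fold changes.

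The rest of the pathway was described from lists of genes by role. For EAE against basal, edgeR called 0.0323% of all genes tested higher in cKO and 12.1% in control mice. In cKO, 19.6% of all genes tested had an unadjusted p below 0.05. Of 11 ligands whose receptors activate NF-kB, 0 were called in cKO EAE against basal (edgeR, 9 at an unadjusted p below 0.05) and 8 rose in control EAE. The median log2 fold change of the ligands was 4.03 in cKO and 5.03 in control mice. The cKO median was 3.60 with Tnf and Cd40lg, at 0 counts in cKO basal, set to a floor of 3 counts over the group. Examples in controls were the lymphotoxin gene Ltb (4.95, SE 0.67) and the interleukin 1 gene Il1a (6.43, SE 0.94), and Tnfsf14 had 0 counts in control basal and averaged 3.97 ± 1.10 CPM in control EAE. Of 14 receptors and receptor-proximal genes, 0 were called in cKO (12 at an unadjusted p below 0.05, median 2.15) and 13 rose in control EAE (median 3.50). Among them were Tlr4, a receptor for bacterial lipopolysaccharide (5.07, SE 0.71), the co-stimulatory receptor Cd40 (4.65, SE 0.66) and the tumor necrosis factor receptor Tnfrsf1b (4.72, SE 0.69).

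The kinases and adaptors between receptor and IkB had lower median fold changes than either end of the pathway. Of 26, 0 were called in cKO (7 at an unadjusted p below 0.05, median 0.26) and 15 rose in control EAE (median 0.90). Examples in controls were the kinase genes Ripk1 (2.72, SE 0.39) and Ikbke (3.81, SE 0.60), and Malt1, a protease of the antigen receptor branch (2.26, SE 0.37). Of 12 other negative regulators, 0 were called in cKO (6 at an unadjusted p below 0.05, median 0.55) and 7 rose in control EAE (median 1.38), among them Irak3 (2.88, SE 0.38), Nlrc5 (5.98, SE 0.95) and the IkB-family gene Nfkbid (2.44, SE 0.40).
Of 22 target genes outside the 10, 20 passed the filter on low counts. In cKO 1 of the 20 rose, the cyclooxygenase gene Ptgs2 (4.17, SE 0.57, edgeR adjusted p = 0.0439), and in control EAE 16 rose, among them Ptgs2 (5.60, SE 0.60), the adhesion molecule gene Icam1 (5.79, SE 0.77) and the iron-carrier binding protein gene Lcn2 (8.63, SE 1.09). Median target fold changes were 4.43 in cKO (3.81 with Cxcl2 and Il6, at 0 counts in cKO basal, at their floor) and 5.65 in control mice. Without cKO basal 2 and cKO EAE 3 the genes that rose in cKO were 8 of 11 ligands, 13 of 14 receptors, 10 of 26 kinases and adaptors, 6 of 12 negative regulators and 16 of 20 targets. With all libraries, DESeq2 called 7, 9, 2, 3 and 15 genes of these lists, in that order, higher in cKO EAE than in cKO basal, and limma voom 7, 12, 11, 6 and 10. Over all genes the shares called higher were 10.8% without cKO basal 2 and cKO EAE 3, 5.09% with DESeq2 and 11.5% with limma voom. The cKO call of Ptgs2 was kept without cKO EAE 3 and lost on leaving out any other of the 12 libraries, with edgeR adjusted p of up to 0.181. The control calls of the 15 genes with the smallest p, 3 from each list, held on leaving out any library, with edgeR adjusted p of at most 0.0244. No list had a gene called by edgeR for a difference of the responses. Limma voom called 1, 2, 11, 1 and 2 smaller in cKO, against 7.35% of all genes, and DESeq2 0, against 0.0869%.

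For cKO over control at EAE the median log2 fold change of every list was below 0, and edgeR called 5 genes lower. Over all genes tested edgeR called 1.54% lower, and 35.9% had an unadjusted p below 0.05. Of the ligands 2 of 11 were lower (median -1.99). Lta, which encodes lymphotoxin alpha, averaged 0.764 ± 0.428 CPM in cKO EAE and 3.57 ± 1.21 CPM in control EAE (-2.17, SE 0.47, edgeR adjusted p = 0.0479). Tnfsf14 averaged 0.827 ± 0.466 CPM in cKO EAE and 3.97 ± 1.10 CPM in control EAE (-2.21, SE 0.47, edgeR adjusted p = 0.0473). Of the kinases and adaptors 3 of 26 were lower (median -0.46). These were Malt1 (-1.25, SE 0.27), Ikbkb, the gene of a catalytic IkB kinase (-0.54, SE 0.12), and Rnf31, the gene of a linear ubiquitin ligase subunit (-0.54, SE 0.12). The 5 calls were lost without cKO EAE 1 or any control EAE library, that of Lta also without cKO EAE 2, with edgeR adjusted p of up to 0.172. Of 14 receptors, 12 negative regulators and 20 targets edgeR called 0, with 7, 8 and 10 at an unadjusted p below 0.05 and medians of -1.33, -0.87 and -1.61. For those 3 lists DESeq2 called 3, 6 and 6 lower and limma voom 10, 7 and 6. Of the ligands DESeq2 called 5 lower and limma voom 6, and of the kinases and adaptors 18 and 19. Over all genes DESeq2 called 14.3% lower and limma voom 15.5%. Without cKO EAE 3 the genes lower in cKO were 8 of 11 ligands, 9 of 14 receptors, 11 of 26 kinases and adaptors, 6 of 12 negative regulators and 11 of 20 targets. In that fit 9.1% of all genes tested were called lower. At basal 3 of the 11 ligands, 12 of the 14 receptors, 25 of the 26 kinases and adaptors, 11 of the 12 negative regulators and 12 of the 22 targets passed the filter on low counts. Of these, 0 were called by edgeR, DESeq2 or limma voom, and 0 had an unadjusted p below 0.05, against 0.181% of all genes tested.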

How the data were processed

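Per the submitters' processing notes, the authors used HISAT2 2.0.5, featureCounts 1.5.0-p3 and the mm10 build, and they deposited raw counts of reads per gene for the 12 libraries of spinal cord RNA. Strand setting, annotation release and treatment of multi-mapping reads are points not given in the sources used here. From the counts, TMM-normalised CPM were computed, and CPM per kb used the deposited gene length. EAE against basal and the difference of the responses were fitted over all 12 libraries, and genotypes within a condition over 6, with edgeR 4.0.16 in R 4.3.3 (filterByExpr, TMM, glmQLFit, glmQLFTest). Tests were two-sided, SE is the log2 fold change over the square root of F, and p-values were adjusted by Benjamini-Hochberg over all genes tested. Samples were grouped by their titles, and p-values measure the spread between these libraries only. The code was tested on simulated data. Alternatives were DESeq2 size factors, no filter, the replicate number as a block, limma 3.58.1 voom with sample weights, the DESeq2 1.42.0 Wald test, leaving out libraries and other libraries in the fit.

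The named genes are all 10 genes, Drd2, Xist, Ddx3y, up to 3 genes of smallest p per pathway list and comparison, and for each of the 10 the 2 protein-coding genes of most similar profile. Tnf, Cd40lg, Cxcl2 and Il6 were named after their values were seen, because their zeros set a bound. The 10 genes, the lists and the libraries that stand apart were chosen with earlier results of these data known. The depth of 15128913 to 17592105 counts per library makes 3 counts worth 0.166 to 0.273 CPM, which covers counting error only. Of the target list, Ccl20 and Csf2 did not pass the filter on low counts.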

Additional observations from a re-analysis of the deposited data

Results flagged for a closer look

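Rel was the 1 gene of the 10 whose genotype difference pointed opposite ways in every cKO library under the 2 conditions. At EAE all 3 cKO libraries (18.6, 27.4 and 9.66 CPM) lay below the control mean of 37.0 CPM. At basal all 3 cKO libraries (9.07, 8.73 and 8.35 CPM) lay above the control mean of 7.22 CPM, although 1 control library at 8.67 CPM overlapped them. The difference of the EAE responses was -1.26 on the log2 scale (cKO minus control, SE 0.45). It had an unadjusted p of 0.0174 and an edgeR adjusted p of 0.547, so it did not pass the test over all genes. The 2 conditions also differed in sex.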

How the results depend on the processing

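For the control response, 8 to 10 of the 10 genes were called when single libraries were left out and 10 under the other settings except the replicate block. Elsewhere the counts changed with the setting, and the cause was not tested. For EAE against basal in cKO, 7 genes of all tested and 0 of the 10 were called. These counts were 493 and 2 without the filter, 3648 and 10 with voom, 1173 and 5 with DESeq2, 2715 and 10 without both libraries that stand apart, and 5 to 1075 and 0 to 6 leaving out 1 library, and 0 genes were called with the 6 cKO libraries alone. In controls, 3183 genes became 11120 (voom), 8673 (without both libraries), 8149 (its 6 libraries alone) and 1724 to 8166 (leaving out 1 library). For the difference of responses, 0 became 2999 with voom (3 of the 10) and 35 with DESeq2. For cKO against control at EAE, 1374 genes and 0 of the 10 became 5790 and 9 with voom and 5400 and 6 with DESeq2. They became 3336 and 9 without cKO EAE 3, and 0 to 3418 and 0 to 9 leaving out 1 library. With all 12 libraries 0 genes were called. Without the filter 2 of the 10 were called lower, against 1.39% of all genes tested. At basal, 0 became 1 gene with DESeq2.

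Fold changes that turned sign were those of cKO over control at basal, none of them called, and 1 other. Nfkbiz was at -0.0423 (no filter), -0.18 (voom), -0.00238 (all 12 libraries), -0.084 (without cKO basal 2) and -0.092 to 0.089 leaving out 1 library. Nfkb1 was at -0.16 (voom), and leaving out 1 library gave -0.088 (without cKO basal 2) to 0.56. Nfkbie was at -0.22 (voom) and -0.23 (without cKO basal 2) to 0.31. Relb was at -0.15 (without cKO basal 2) to 0.50, and Tnfaip3 at -1.21 to 0.20 (without cKO basal 2). The difference of responses of Bcl3 was -1.49 to 0.0011 leaving out 1 library.

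Replicate numbers did not pair the libraries. Deviations from group means of same-numbered libraries correlated at -0.507 to 0.424, over 0.1 in 4 of 18 pairs, and 4 of 12 libraries correlated best with their own number. With the replicate block, 0 genes were called for cKO against control at EAE, and Nfkbia in controls had an edgeR adjusted p of 0.0526.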

Other observations

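Profiles over the 12 libraries were compared as the root mean square difference of log2(CPM + 0.5), each centred on its own mean, among 14463 protein-coding candidates. Among the subunits, the nearest genes were Ralb (0.0877) and Stard8 (0.0920) for Rela, Spata13 (0.118) and Ptbp3 (0.139) for Rel, Ggta1 (0.142) and Tlr12 (0.151) for Nfkb2, Chsy1 (0.147) and Cdca4 (0.174) for Nfkb1, and Ly6e (0.150) and Coro1a (0.172) for Relb. Inhibitors had less close neighbours, with Pygl (0.159) and Tor4a (0.199) for Nfkbie, Tor3a (0.176) and Mb21d1 (0.224) for Nfkbiz, Plgrkt (0.236) and Mgst1 (0.238) for Nfkbia, Gbp9 (0.303) and Itga5 (0.311) for Bcl3, and Mapkapk3 (0.316) and Adap2 (0.323) for Tnfaip3. Within the 10, Relb and Nfkbie were the closest pair (0.286) and Rela and Bcl3 the farthest (1.84). These distances grow with the size of a gene's response and are a description of the same libraries.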
